A study of Mus musculus with 34 samples.

Results

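The sites described here were 4330 KDM5C peaks that lay more than 1000 bp from the nearest transcription start site and overlapped a KDM5A peak by at least 1 bp. They made up 29.2% of all 14827 KDM5C peaks and 34.2% of the 12655 distal ones. The other 8325 distal KDM5C peaks had no KDM5A peak, whereas 2044 of the 2172 KDM5C peaks within 1000 bp of a start site (94.1%) overlapped one. Each site was matched to the KDM5A peak it overlapped most, which gave 4259 of the 87525 KDM5A peaks. KDM5A tags given for a site are those of this whole KDM5A peak, which can be wider or narrower than the site. Of the sites, 4282 met 1 KDM5A peak, 46 met 2 and 2 met 3. Some sites therefore shared a KDM5A peak, and sites near the same gene were not independent of each other.

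KDM5A, KDM5B and KDM5C are histone demethylases that remove methyl groups from lysine 4 of histone H3. The trimethylated form, H3K4me3, marks active promoters, and the enzymes are best known at promoters with many CG dinucleotides. Distal regulatory regions mostly carry the monomethylated form instead. In fat cell precursors, distal regions near lipid and hormone genes are where the factors that drive adipogenesis, PPARγ and the C/EBP proteins, are known to bind.

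All cells were 3T3-L1, an established mouse preadipocyte line. Differentiation was started 2 days after confluence (day 0) with fetal bovine serum and a mix of insulin, 3-isobutyl-1-methylxanthine and dexamethasone. KDM5A binding was profiled at day 0, 4 hours and day 2 (2 libraries each), KDM5C binding at day 2 (2 libraries), and 1 Input library served all of them. The labels state no transduction for these ChIP cells. RNA and H3K4me3 came from cells transduced 4 days before induction with lentiviral hairpins, either shLuc (the control) or shKdm5ABC, at the same 3 times with 2 libraries per group. Chromatin for KDM5A, KDM5C, H3K4me3 and Input was crosslinked in 2 steps, 45 min in DSG at 0.2 mM and 10 min in formaldehyde at 1%. This scheme is used for proteins held to DNA through others. The series as a whole asks how binding of KDM5A, H3K4me3 and expression relate to the cell cycle genes that this family of enzymes acts on, and the comparisons below ask what was found at sites away from promoters.

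The KDM5C libraries were shallow, with 2.95 M and 8.13 M reads (M, 1000000 reads), of which 3.49% and 1.47% fell in peaks. The Input had 11.1 M reads. The KDM5A libraries held 3.87 M to 17.6 M reads, with 19.4% (day 0, replicate 2) to 42.5% (day 2, replicate 1) of them in KDM5A peaks. All tags below are reads in the peak scaled to 10000000 per library, so that 1 read was worth 3.39 tags in KDM5C replicate 1, 2.58 in KDM5A 4 hours replicate 2 and 2.27 in KDM5A day 2 replicate 1. The knocked-down genes were lower in the shKdm5ABC RNA libraries at every time. The log2 differences at day 0, 4 hours and day 2 were -1.40, -1.33 and -1.35 for Kdm5c, -0.98, -0.78 and -0.90 for Kdm5a and -0.72, -0.73 and -0.65 for Kdm5b, all called by limma (highest adjusted p 0.022).

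The peaks are placed on mm9, and no sequence of that build was used here, so 3 promoters stand for the sites that reached a start site. The intervals of 4 sites held the start site itself although their centres lay more than 1000 bp away: Retn, Adipoq, Bcor and 5430416O09Rik (chosen after their values were seen). Retn encodes resistin and Adipoq encodes adiponectin, both hormones secreted by fat cells, and Bcor encodes a corepressor of BCL6. The sequences below are from RefSeq (GRCm38.p6, 250 bases before to 50 after the start, read 5′ to 3′ on the gene's strand), with each CG dinucleotide in capitals.
Retn, chr8:3655520-3655819, plus strand: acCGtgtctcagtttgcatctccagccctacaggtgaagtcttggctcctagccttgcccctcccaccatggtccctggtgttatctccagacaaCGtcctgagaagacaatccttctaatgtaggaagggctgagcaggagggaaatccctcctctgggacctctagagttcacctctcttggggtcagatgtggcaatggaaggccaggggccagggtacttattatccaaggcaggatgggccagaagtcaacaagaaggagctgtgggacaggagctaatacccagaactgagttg
Adipoq, chr16:23146286-23146585, plus strand: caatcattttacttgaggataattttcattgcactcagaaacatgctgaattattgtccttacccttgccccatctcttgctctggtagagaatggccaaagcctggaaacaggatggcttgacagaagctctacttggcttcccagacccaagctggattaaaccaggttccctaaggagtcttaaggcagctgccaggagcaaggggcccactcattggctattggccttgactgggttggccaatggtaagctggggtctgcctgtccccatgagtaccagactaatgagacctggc
Bcor, chrX:12160297-12160596, minus strand: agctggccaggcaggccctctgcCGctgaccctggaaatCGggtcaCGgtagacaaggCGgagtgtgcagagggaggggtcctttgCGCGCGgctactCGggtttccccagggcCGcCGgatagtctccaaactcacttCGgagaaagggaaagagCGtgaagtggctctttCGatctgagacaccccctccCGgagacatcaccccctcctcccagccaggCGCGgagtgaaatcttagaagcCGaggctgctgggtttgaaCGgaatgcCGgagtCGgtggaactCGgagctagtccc
The Retn promoter had 2 CG dinucleotides, the Adipoq promoter 0 and the Bcor promoter 21. Over all 27025 promoters of the same length the median was 7, and 23.8% had at most 2. A promoter was matched for 2293 of the 3041 genes nearest to the sites, with a median of 19 CG and 6.85% with at most 2. The fat cell hormones were thus at the CG-poor end and most nearest genes were not. The motif CCGCCC, searched on both strands, was in 58.4% of the matched promoters and in 35.9% of all promoters.

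Before any comparison, 70 sites have to be set apart because their 2 day 2 libraries gave opposite readings. At these sites KDM5A day 2 replicate 1 exceeded 4 times replicate 2 (after adding 5 tags to both) with at least 50 tags. Their median KDM5A was 3.9 and 3.98 tags at day 0, 4.19 and 10.3 at 4 hours, and then 160.015 against 5.41 tags in the 2 day 2 libraries. KDM5C replicate 1, also of day 2, had a median of 50.905 tags there and replicate 2 had 7.38. The signal was thus high in replicate 1 of day 2 for both antibodies and much lower elsewhere, with KDM5A 4 hours replicate 2 in between. That library exceeded 4 hours replicate 1 at 61 of the 70 sites and day 2 replicate 2 at 57, reached 188.6 tags at Acacb and 111 at Ybx3, and exceeded day 2 replicate 1 at 0. At the remaining 4260 sites the day 2 KDM5A medians were 18.16 and 16.2 tags and the KDM5C medians 20.36 and 11.1. The KDM5A table held 361 peaks of this kind, of which 70 had a KDM5C peak, and the opposite pattern was seen at 7 sites. They took 8 of the 20 places with the most KDM5C tags, Acacb, Arid1b, Ybx3 and Fam227b among them, and whether they reflect the cells of that experiment or its libraries was not tested.

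**Figure D1:**
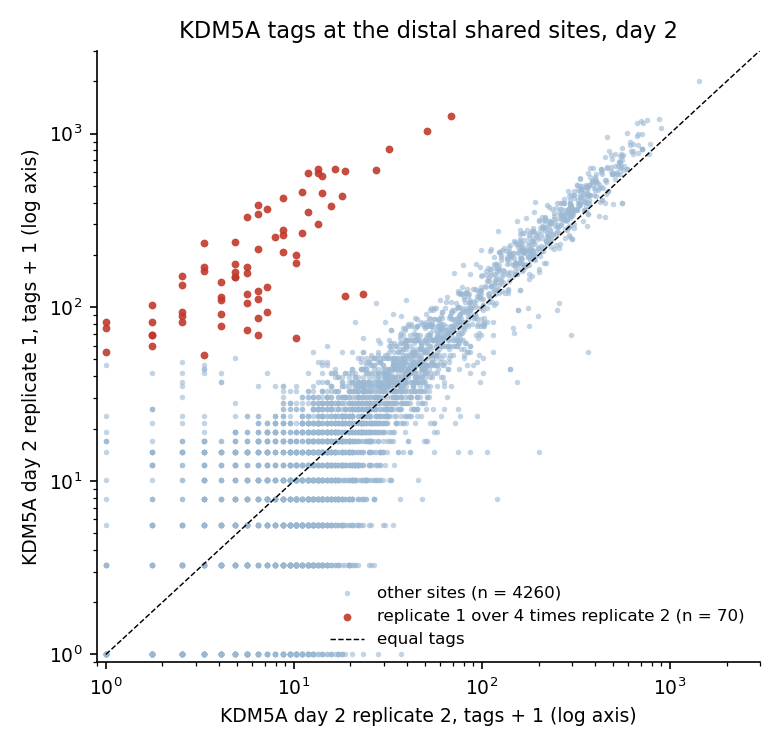
KDM5A tags + 1 at the 4330 distal shared sites in day 2 replicate 1 (y axis, log) against day 2 replicate 2 (x axis, log), with 1 point per site and a dashed line for equal tags. The 70 red points lie far above the line, with a median of 160.015 tags in replicate 1 and 5.41 in replicate 2, while the other 4260 follow it.

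KDM5C stood well above Input at the distal shared sites, at levels between those of the other distal peaks and the promoter peaks. The median site had 20.36 KDM5C tags in replicate 1 and 11.1 in replicate 2, against 0.9 in Input, which were 6, 9 and 1 reads. The middle 80% of sites ran from 10.2 to 47.5 tags in replicate 1, from 3.69 to 23.4 in replicate 2 and from 0 to 2.7 in Input. The ratio of mean KDM5C to Input, with 1 tag added to both, had a median of 8.34, with 5.96 and 13.8 at the 10th and 90th percentiles. It was 11.2 in replicate 1 alone and 5.26 in replicate 2 alone. Both libraries exceeded Input at all 4330 sites. Peaks were called for this enrichment, so these are descriptions and no test was made.

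Distal KDM5C peaks without KDM5A had the same Input median of 0.9 tags, but KDM5C medians of 17.0 and 4.92 tags. With 1 tag added to KDM5C and to Input, both replicates reached 4 times Input at 2873 distal shared sites (66.4%). The same held at 3780 of the peaks without KDM5A (45.4%) and at 68.9% of shared promoter peaks. The part of the added tag in these shares was not tested. A mean of at least 20 KDM5C tags was found at 1272 distal shared sites (29.4%), at 554 of those without KDM5A (6.65%) and at 51.0% of shared promoter peaks. Input was at 0 reads in 1086 sites (25.1%) and in 46.1% of those without KDM5A. The ratio to Input differed little between the classes (medians of 8.34, 8.40 and 7.95), and the classes differed mainly in replicate 2 and in the number of reads.

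**Figure D2:**
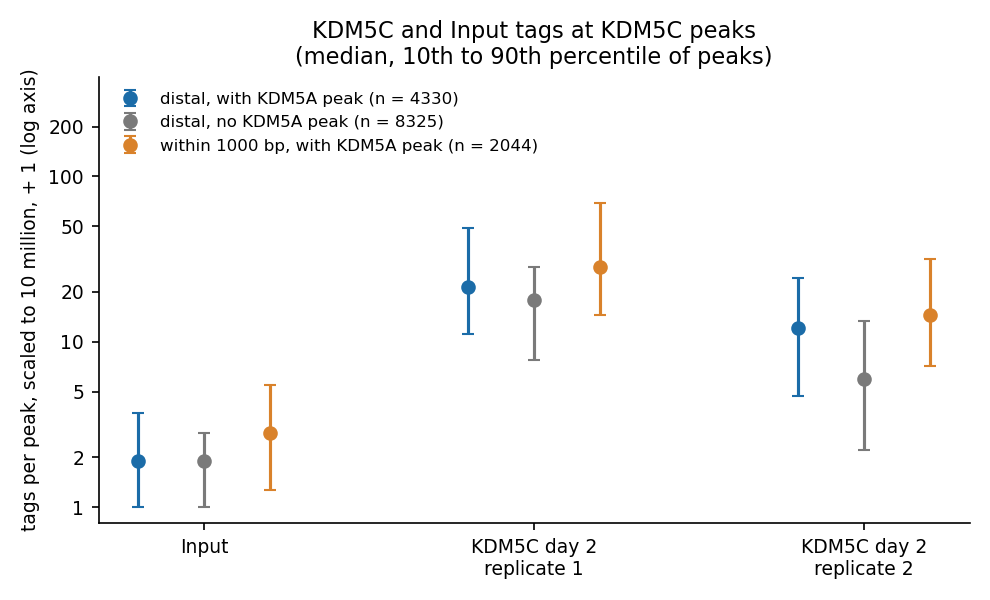
Tags + 1 per KDM5C peak (log axis) in Input and both KDM5C libraries for distal peaks with a KDM5A peak (blue), distal peaks without one (grey) and KDM5C peaks within 1000 bp of a start site with one (orange); points are medians over peaks and bars the 10th to 90th percentile. Distal shared sites have medians of 20.36 and 11.1 KDM5C tags against 0.9 in Input, and peaks without KDM5A fall further in replicate 2, to 4.92.

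Of the 20 sites with the most KDM5C tags, the 12 outside the 70 set apart lay at genes of several kinds. In order of mean tags, the first were at Cpm, Retn, Adipor2, Klf9, Ppp2r1b, Bcl2l10, Zfp36l1, Inadl and Adipoq, and of these Retn and Adipoq were in the list of adipocyte lipid and secreted genes and Klf9 in those of adipogenic factors and of glucocorticoid response. Retn had the widest site, 6469 bp at chr8:3653940-3660409 with its centre 1404 bp downstream of the start, with 377 and 180 KDM5C tags and 27.9 in Input. A 5450 bp site 7335 bp inside Adipor2 (chr6:119357441-119362891), which encodes a receptor for adiponectin, had 333 and 140 tags and 18.9 in Input. Klf9, a transcription factor induced by glucocorticoids, had 292 and 130 tags at chr19:23209286-23211424, 5361 bp upstream, and 17.1 in Input. The site around the Adipoq start (chr16:23144044-23147129) had 163 and 94.7 tags and 11.7 in Input. Replicates 1 and 2 were both high at these 4 sites. Their ratios to Input were 9.66 (Retn), 11.9 (Adipor2), 11.7 (Klf9) and 10.2 (Adipoq), against a median of 8.34 over all sites. All 4 lay between the 10th and 90th percentiles of sites (5.96 and 13.8). Their high tags thus came with wide intervals and raised Input.

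Other sites of high tags came with qualifications. Cpm, a carboxypeptidase gene, had 411 and 151 KDM5C tags at chr10:117106577-117107202 with the highest Input of all sites, 34.2 tags. Only 2 sites, those of Cpm and Retn, passed 20 Input tags. The highest KDM5C value of all, 559.94 tags at Acacb (acetyl-CoA carboxylase 2, chr5:114622879-114623505), fell to 84.9 in replicate 2 and belonged to the 70 sites set apart. The 5 highest ratios to Input, led by Pou4f1 at 151, rested on Input of 0 to 2 reads. Of these 5, Pou4f1, Acacb, Ano2 and Arid1b were among the 70 sites, and the fifth, 3110007F17Rik, had 129 and 9.84 KDM5C tags and 45.4 and 0 KDM5A tags at day 2.

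The sites were closer to genes than the distal KDM5C peaks without KDM5A. Their median distance to a start site was 16708 bp (quartiles of 5630.5 and 42761.8 bp), against 34730 bp. Of the sites, 645 (14.9%) lay at 1 to 3 kb, 978 (22.6%) at 3 to 10 kb, 1792 (41.4%) at 10 to 50 kb, 522 (12.1%) at 50 to 100 kb and 393 (9.08%) beyond 100 kb. For peaks without KDM5A, 23.8% lay beyond 100 kb and 4.96% at 1 to 3 kb. KDM5C strength did not follow distance: the median ratio to Input ran between 7.89 and 8.61 over the 5 distance classes. More sites lay downstream of the nearest start (2620) than upstream (1710), and 74 were on chromosome X. The sites just outside the limit of 1000 bp were at 1006 bp (2610034M16Rik), 1012 bp (Zfp503) and 1015 bp (Pgrmc2), and the shared peaks just inside it at 999 bp (Galnt2 and Gm10814) and 998 bp (B230219D22Rik). Zfp503 had 363 and 145 KDM5A tags at day 0 and B230219D22Rik 279 and 134, while 2610034M16Rik had 0 and 2.84 and Gm10814 7.8 and 5.11, so that promoter-like and weak sites stood on both sides of it.

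A minority of sites reached into the H3K4me3 peak of a promoter, and whether their KDM5C signal belonged to that promoter was not tested. An H3K4me3 promoter peak overlapped 482 sites (11.1%), as against 61 of the distal peaks without KDM5A (0.733%) and 1960 of the shared promoter peaks (95.9%). These 482 sites lay at a median distance of 1810.5 bp and had median KDM5A of 234 and 114 tags at day 0, 217 and 142 at 4 hours and 238 and 191 at day 2. The other 3848 sites lay at 20555 bp and had 8.78 and 6.82, 11.7 and 12.9, and 15.9 and 13.9 KDM5A tags. Tags of the matched KDM5A peaks thus differed over 10-fold between these sets. Tags of the KDM5C peaks hardly did, with medians of 23.8 and 11.1 in the first and 20.36 and 10.5 in the second. The 2 counts are over unlike intervals and were not scaled by width. At Meis2, for example, Input had 2.7 tags in the KDM5C peak and 28.8 in the KDM5A peak. At 228 sites the centre of the KDM5A peak was within 1000 bp of a start site. Across all sites the rank correlation of KDM5C with day 2 KDM5A tags was 0.338 (4330 sites in the same series of libraries, given as a description).

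KDM5A was low at most of the sites at day 0 and higher in both day 2 libraries. The median KDM5A peak under a site (4259 peaks) had 9.75 and 7.39 tags at day 0, 14.2 and 12.9 at 4 hours, and 18.16 and 15.5 at day 2, with 1.8 in Input. Upper quartiles were 28.3 and 18.8, 43.6 and 36.2, and 45.4 and 37.9 tags. Both day 2 medians exceeded both day 0 medians, and the 4 hour values lay between. Distal KDM5A peaks without KDM5C had 5.85 and 3.98, 6.7 and 5.17, and 6.81 and 7.73 tags. KDM5A peaks under the shared promoter peaks had 258 and 114, 229 and 134, and 261 and 195 tags, with no such order beyond the spread of the replicates. A mean of at least 20 KDM5A tags was reached by the matched KDM5A peak of 1699 sites (39.2%) and in 23.1% of all KDM5A peaks.

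**Figure D3:**
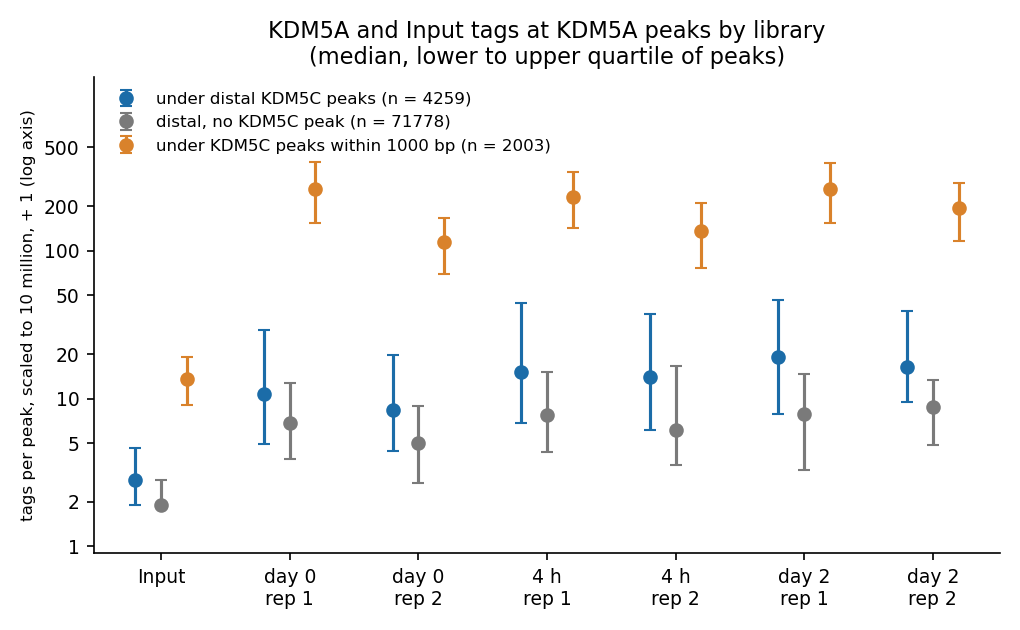
KDM5A and Input tags + 1 per KDM5A peak (log axis) in each library for the 4259 peaks under distal KDM5C peaks (blue), 71778 distal KDM5A peaks without KDM5C (grey) and 2003 under KDM5C peaks within 1000 bp of a start site (orange); points are medians and bars the lower to upper quartile of peaks. The blue medians go from 9.75 and 7.39 tags at day 0 to 18.16 and 15.5 at day 2.

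Day 2 against day 0 gave the largest KDM5A difference at the sites. The median difference was 0.66 on the log2(tags + 1) scale, against 0.37 over all 87525 peaks and 0.33 over distal peaks without KDM5C. It was 0.40 over the KDM5A peaks under shared promoter peaks. Both day 2 libraries exceeded both day 0 libraries at 1889 peaks under sites (44.4%), against 26.6% of all peaks, and the reverse held at 243 (5.71%, against 10.4%). By limma with Benjamini-Hochberg adjustment, 63 (1.48%) were called higher, against 0.136% of all peaks, and 39 (0.931%) were called higher without the 70 sites set apart. The sites were chosen by KDM5C peaks of day 2, a choice that can favour KDM5A peaks high at that time. The shares set beside those of all peaks are therefore descriptions. No peak under a site was called lower by limma (0.0366% of all peaks were), with 830 at an unadjusted p under 0.05 in either direction. DESeq2 on the recovered reads called 5 higher and none lower (430 unadjusted), and edgeR called 132 higher and 17 lower. The call count was 0 without day 2 replicate 1 (330 unadjusted) and 25 without day 0 replicate 2, the library with 19.4% of its reads in peaks. The median stayed above 0 in all 15 alternatives (0.12 to 1.00). The lowest, 0.12, came from centring each library on its median, so the size of the day 2 difference depends on the scaling. The part of the unequal share of reads in peaks in this difference was not tested.

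At 4 hours against day 0 the median difference was 0.36, against 0.18 over all peaks, 0.24 at distal peaks without KDM5C and 0.04 under shared promoter peaks. Centring each library on its median turned the 0.36 to -0.08, so the direction at 4 hours depends on the scaling. The groups did not overlap and were higher at 4 hours under 1359 sites (31.9%, against 22.4% of all peaks) and lower under 221 (5.19%, against 7.41%). By limma 14 were called higher, against 0.0606% of all peaks, and none lower (500 at an unadjusted p under 0.05 in either direction). DESeq2 called 0 in either direction (197 unadjusted) and edgeR 10 higher and 0 lower. Without 4 hours replicate 2 the count was 0 (384 unadjusted), without 4 hours replicate 1 it was 2, without day 0 replicate 2 it was 1, and without day 0 replicate 1 it was 45. Day 2 against 4 hours had a median of 0.28, against 0.19 over all peaks and a higher 0.35 under shared promoter peaks. The groups were apart and higher at day 2 under 1273 sites (29.9%, against 20.7% of all peaks) and lower under 760 (17.8%, against 20%). The choice of sites by KDM5C peaks of day 2 bears on this comparison too. Limma had 47 called higher and 12 lower, against 0.123% and 0.483% of all peaks. That count of 59 became 1 without day 2 replicate 1, 10 without 4 hours replicate 2 and 143 without 4 hours replicate 1.

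The 5 largest called rises at day 2 (4930455J16Rik, Adam10, Wbscr17, Tmem131 and Npffr2) were all among the 70 sites set apart, with 268 to 611 tags in replicate 1 and 6.18 to 17.8 in replicate 2. The gains that both replicates showed were at other sites. A site 18164 bp inside Mtor, which encodes the kinase of the nutrient-sensing mTOR complexes, had 7.8 and 6.25 KDM5A tags at day 0, 60.3 and 49.1 at 4 hours, and 79.4 and 39.4 at day 2. Both later times lay above day 0, by 2.79 (SE 0.59, limma adjusted p = 0.022) at 4 hours and 2.84 (SE 0.59, limma adjusted p = 0.0044) at day 2. A site near Sftpb had 7.8 and 6.82 tags at day 0, 53.6 and 80.1 at 4 hours and 9.08 and 23.2 at day 2, and only the 4 hour libraries stood apart (log2 difference 3.00, SE 0.63, limma adjusted p = 0.022). A site near Plekhg4 went from 5.85 and 2.27 to 30.1 and 38.8 tags at 4 hours and had 34.0 and 22.4 at day 2 (4 hours against day 0: 2.89, SE 0.67, limma adjusted p = 0.037). None of these 3 calls at 4 hours was kept when either 4 hour library or day 0 replicate 2 was left out.

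Retn and Adipoq, named after their values were seen, gained KDM5A between 4 hours and day 2. The Retn site had 37.1 and 22.2 tags at day 0, 41.9 and 12.9 at 4 hours, and 161 and 104 at day 2. Day 2 was above every earlier library (against 4 hours 2.41, SE 0.57, limma adjusted p = 0.012; against day 0 2.13, adjusted p = 0.072). The Adipoq site had 13.7 and 14.2, then 12.6 and 5.17, then 63.5 and 72.7 tags. Again both day 2 libraries lay above the rest (against 4 hours 2.91, SE 0.63, limma adjusted p = 0.0040; against day 0 2.21, adjusted p = 0.11). Both calls against 4 hours were lost when 4 hours replicate 2 or either day 2 library was left out, while the differences stayed between 1.60 and 3.48. The Bcor site, at its CG-rich promoter, had 95.6 and 39.8, 92.1 and 36.2, and 93.1 and 67.3 tags, with overlapping groups.

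Among the calls of day 2 against 4 hours by size, Dnah2, a dynein gene, had 8.37 and 0 tags at 4 hours and 68.1 and 37.1 at day 2 (4.07, SE 0.80, limma adjusted p = 0.0011). The kinase gene Akt2, which carries insulin signals in fat cells, had 1.67 and 10.3 tags at 4 hours and 52.2 and 41.8 at day 2 (3.12, SE 0.72, limma adjusted p = 0.010). In the other direction, Znrf3, a ubiquitin ligase gene that restrains Wnt receptors, had 23.5 and 51.7 tags at 4 hours and 0 and 10.8 at day 2, a difference of -3.38 (SE 0.71, limma adjusted p = 0.0031). Tmem167 (-2.47) and Mir31 (-2.44) were the next lowest. Every one of these 5 calls was lost without day 2 replicate 1.

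Tags of the KDM5A peaks matched to strong KDM5C sites of fat cell genes ranged from near 0 to promoter levels. These peaks are other intervals than the sites. Input was 14.4 tags in the Lpl site and 0.9 in its KDM5A peak, and 5.4 and 36.9 at Dgat1. The part of interval size in the range was not tested. A site 12991 bp from the start of Cebpa, which encodes the adipogenic factor C/EBPα, had 91.6 and 45.5 KDM5C tags but 0.98 and 3.98 KDM5A tags at day 0, 1.67 and 0 at 4 hours and 6.81 and 9.28 at day 2. The site 31436 bp upstream of Lpl, lipoprotein lipase, had 153 and 71.4 KDM5C tags and 6.81 and 16.2 KDM5A tags at day 2. The site 66807 bp upstream of Acsl1, an acyl-CoA synthetase, had 102 and 46.8 KDM5C tags, with KDM5A at 3.9 and 0 at day 0 and 29.5 and 7.73 at day 2. The site 2348 bp inside Pparg had 67.9 and 57.8 KDM5C tags, and its KDM5A was 16.6 and 15.3, 46.9 and 41.3, and 27.2 and 30.9 tags, above the median of the sites in all 6 libraries. The site 2393 bp from the start of Dgat1, an enzyme of triglyceride synthesis, had 102 and 44.3 KDM5C tags and KDM5A of 369 and 136 at day 0, 376 and 217 at 4 hours and 415 and 432 at day 2. None of these sites, Dgat1 included, was called for KDM5A by limma in any of the 3 comparisons (lowest adjusted p 0.48). The knocked-down gene Kdm5b had a site 3032 bp upstream with 27.1 and 17.2 KDM5C tags and 61.9 to 163 KDM5A tags over the 6 libraries.

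The 4330 sites were assigned to 3041 nearest genes, of which 2738 were in the RNA table and 2380 passed the filter on low values. Nearest genes of fat cell and hormone response lists were frequent among them. Of the tested members of each list, 21 of 30 adipocyte lipid and secreted genes (70%) were nearest to a site, 24 of 32 glucocorticoid, cAMP and immediate-early genes (75%), 14 of 24 adipogenic factors (58.3%), 19 of 35 extracellular matrix genes (54.3%), 7 of 15 preadipocyte and Wnt genes (46.7%) and 6 of 17 clock genes (35.3%). The share over all tested transcripts was 17.6%. Cell cycle lists lay on both sides of it, with 5 of 35 replication genes (14.3%), 4 of 32 mitosis genes (12.5%) and 6 of 29 G1 and S phase regulators (20.7%), as did histone methylation genes (6 of 25, 24%) and interferon genes (3 of 26, 11.5%). Of markers for other cell types, bone had 2 of 5 (Runx2 and Spp1), and macrophage (4), endothelial (2), muscle (4) and neuronal (2) markers that were tested had none. No test of these shares was made.

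RNA of the nearest genes was more often higher than lower at day 2 of differentiation in shLuc cells. By limma, 848 of the 2380 (35.6%) rose and 598 (25.1%) fell from day 0, against 27.1% and 27.8% of all 13534 transcripts. Genes nearest to distal KDM5C peaks without KDM5A had 29.8% and 27.5%, and those of shared promoter peaks 30.7% and 27.4%. At 4 hours, 621 (26.1%) rose and 490 (20.6%) fell, against 20.7% and 21.6% of all transcripts. The median difference at day 2 was 0.12, against -0.01 over all transcripts. KDM5C peaks were called at day 2 and nearest genes share peaks, so these shares are given without a test of the difference between the classes.

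The lipid and secreted genes of fat cells led the rise. All 21 that were nearest to a site rose at day 2 (median 4.40), where the whole tested list of 30 had 26 higher and 1 lower (median 4.19). Cidec, a lipid droplet protein, went from 3.22 and 3.53 at day 0 to 11.23 and 12.09 at day 2 on the deposited log2 scale (difference 8.28, SE 0.83, limma adjusted p = 1.8e-05). Retn went from 2.70 and 2.44 to 9.65 and 9.41 (6.96, SE 0.53, limma adjusted p = 3.5e-06) and Adipoq from 3.00 and 3.30 to 9.27 and 10.40 (6.68, SE 0.76, limma adjusted p = 4.1e-05). At 4 hours Retn was at 3.61 and 2.83 and Adipoq at 3.39 and 3.26, so both rose after 4 hours, as did the KDM5A tags at their sites in cells without a stated transduction. G0s2 (7.16), Lipe (5.58) and Lpl (2.07), a lipase inhibitor and 2 lipases, also rose. The groups of day 0 and day 2 libraries did not overlap for any gene of this paragraph.

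Adipogenic factors near sites split into 10 that rose and 3 that fell of 14 (median 1.55). Those that fell were Klf4 (-1.81), Nfib (-0.58) and Ppargc1a (-2.62). Cebpa went from 5.63 and 5.91 to 9.78 and 9.99 (4.12, SE 0.22, limma adjusted p = 6.8e-07), and Pparg from 8.08 and 8.67 to 10.85 and 11.32 (2.71, SE 0.32, limma adjusted p = 5.2e-05). Of the 7 preadipocyte and Wnt genes, 5 fell (median -2.21), among them Pdgfrb, a growth factor receptor of precursor cells (-3.90). Extracellular matrix genes near sites had 5 higher and 8 lower of 19 (median -0.16), where the tested list of 35 had 5 higher and 24 lower (median -1.85), so all 5 that rose in the list were nearest to a site. These 5 were collagen genes, Col15a1 (2.42), Col6a2 (1.02), Col4a1 (0.97), Col4a2 (0.82) and Col6a1 (0.69), most of them of basement membranes, while the fibrillar Col1a1 (-3.32) and the proteases Mmp3 (-3.52) and Mmp14 fell. Of the 5 replication and 4 mitosis genes nearest to a site, all 9 rose, as did 33 of 35 and 32 of 32 of the lists. Spp1 (osteopontin), Ube2l6 and Islr had the largest falls (-5.06, -4.87 and -4.77).

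At 4 hours the hormone response stood out. Of 24 glucocorticoid, cAMP and immediate-early genes nearest to a site, 20 rose and 3 fell (median 2.75), against 24 and 3 of the 32 in the list. Vdr, the vitamin D receptor, was at 7.17 and 6.84 at day 0, 12.72 and 12.45 at 4 hours and 6.97 and 7.01 at day 2, a rise of 5.58 (SE 0.13, limma adjusted p = 1.9e-08). At day 2 the difference from day 0 was -0.01 (adjusted p = 0.95). Fosl1, an AP-1 subunit, rose by 5.24, Glul, glutamine synthetase, by 5.04 and Nr4a1, an orphan nuclear receptor, by 4.44. Dusp1 (5.02), Errfi1, Fkbp5 (3.31) and Tsc22d3 (3.00), known glucocorticoid targets, rose as well, and Klf2 (-1.24), Klf6 (-1.42) and Ppargc1a (-2.83) fell. Of 6 clock genes, 5 rose, led by Per2 (3.26) and Nfil3 (3.09), and Nr1d1 fell (-1.21). Adamts5, a matrix protease, had the largest fall, from 7.56 and 7.78 to 3.93 and 3.82.

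KDM5A gained most under sites near genes whose RNA rose, as measured in different cells. Under sites whose nearest gene rose in shLuc RNA at day 2, KDM5A differed by a median of 0.99 between day 2 and day 0 (quartiles 0.35 and 1.63, 1421 sites), and both day 2 libraries exceeded both day 0 libraries at 809 (56.9%). Where the gene fell, the median was 0.36 (785 sites), with 230 (29.3%), and where it was not called 0.56 (1255 sites, 39.6%). Outside H3K4me3 peaks and the 70 sites set apart, the medians were 1.06, 0.37 and 0.63. Distal KDM5A peaks without KDM5C had 0.60, 0.12 and 0.39, the same order at a lower level. At 4 hours against day 0 the medians under sites were 0.45, 0.25 and 0.30. These are descriptions over sites that share libraries and genes and were chosen by KDM5C peaks of day 2.

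Genes with several sites rose more often. At day 2, 32.3% of tested genes with 1 site (555 of 1720), 35.8% with 2 (150 of 419), 55.3% with 3 or 4 (109 of 197) and 77.3% with 5 or more (34 of 44) were called higher by limma, with medians of 0.05, 0.10, 0.74 and 1.57. For distal KDM5C peaks without KDM5A, 43.7% of the genes with 5 or more peaks rose (55 of 126). At 4 hours the shares were 23.4%, 27.7%, 38.6% and 59.1%. Counting only sites outside H3K4me3 peaks gave 76.5% for 5 or more (26 of 34) at day 2, and leaving out the 70 sites set apart gave 77.3% again (34 of 44). These shares were not tested, and the genes differ in length and level.

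**Figure D4:**
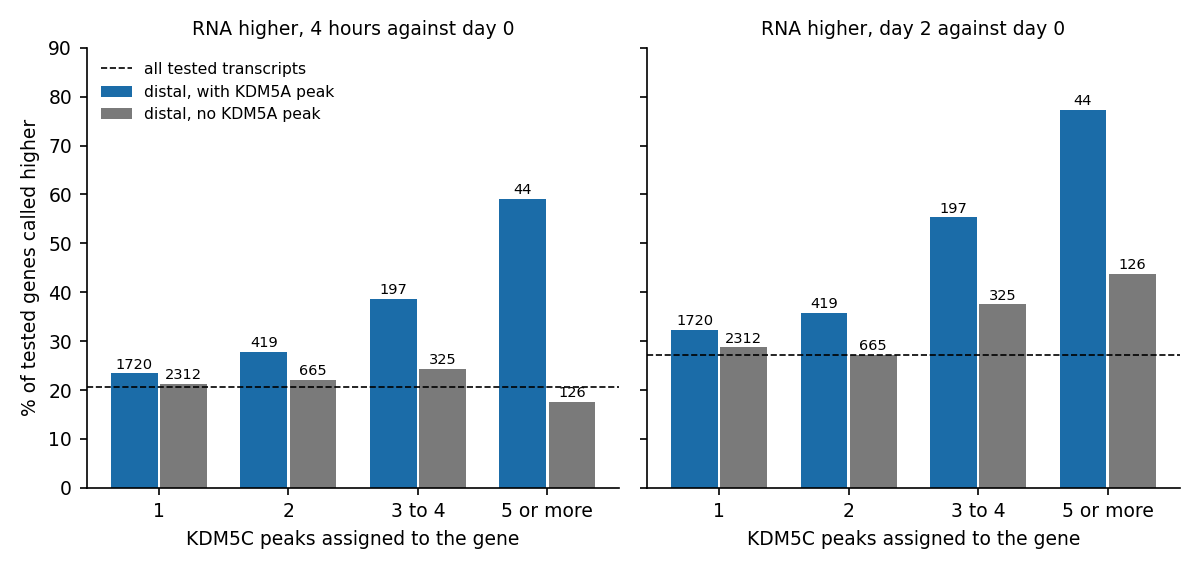
Percentage of tested genes called higher in shLuc RNA by limma at 4 hours (left) and day 2 (right) against day 0, by the number of distal KDM5C peaks nearest to the gene, for peaks with a KDM5A peak (blue) and without (grey); numbers over the bars are genes tested and the dashed line is the share of all tested transcripts. The blue bars at day 2 go from 32.3% for 1 site to 77.3% for 5 or more.

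The 55 genes with 5 or more sites were of many kinds, and 44 of them were tested for RNA. Tomm20, a mitochondrial import receptor, had the most, 12 sites, and rose by 0.80 at day 2 (SE 0.16, limma adjusted p = 0.0018), from 8.06 and 8.17 to 8.81 and 9.02. Acsl1 had 11 sites and went from 6.24 and 6.39 at day 0 through 7.18 and 7.13 to 12.68 and 13.46 (6.76, SE 0.71, limma adjusted p = 2.5e-05). The long noncoding A530013C23Rik had 10 sites and a difference of 0.89 (limma adjusted p = 0.083), the repressor gene Bcl6 had 9 and rose by 1.78, and Gm4265 had 9 and was not tested for RNA. Scd1 and Fasn, enzymes of fatty acid desaturation and synthesis, had 7 and 5 sites and rose by 4.40 and 2.57. The kinase gene Pim3 had 8 sites and rose by 3.95, Adipor2 had 7 and rose by 3.70, Pcx (pyruvate carboxylase) had 5 and rose by 3.84, and Rxra, the partner receptor of PPARγ, had 7 and rose by 1.67. Septin9, a cytoskeletal gene, had 6 sites, as did Col4a1 and the small GTPase gene Rhob. Of the 44 tested genes, the 2 that fell at day 2 were Irf2bpl (-0.97) and Lpp (-0.77).

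Some of these genes moved early. Gprc5b, an orphan receptor gene with 5 sites, was at 7.47 and 7.56 at day 0, 11.74 and 11.66 at 4 hours and 10.47 and 10.33 at day 2. Foxp1, a transcription factor gene with 5 sites, rose by 2.66 at 4 hours and differed by 0.40 at day 2 (limma adjusted p = 0.056, or 0.024 with the replicate block). Scd1 already stood 3.49 higher at 4 hours, while Lpl differed by 0.09 (limma adjusted p = 0.78) and Bcl6 by -0.43 (adjusted p = 0.12) at that time.

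**Figure D5:**
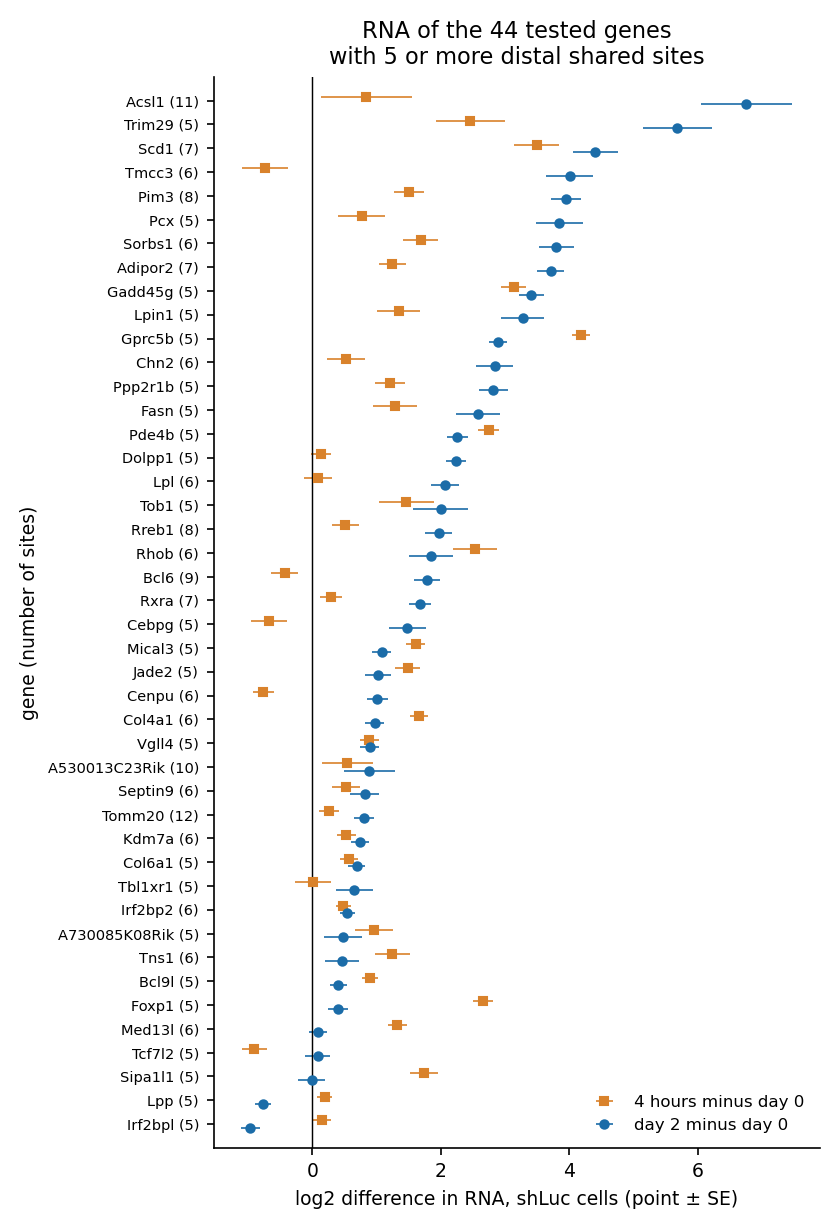
Log2 difference in shLuc RNA (x axis, point ± SE, 2 libraries per time) at 4 hours (squares) and day 2 (circles) against day 0 for the 44 tested genes with 5 or more distal shared sites, in order of the day 2 difference with the number of sites in brackets. Acsl1 is highest at 6.76, Lpp and Irf2bpl are the 2 called lower at day 2, and Gprc5b is highest at 4 hours.

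The sites lay in groups at a few loci. With sites joined across gaps of up to 10000 bp, 3269 stood alone, 370 pairs formed, and 89 groups held 3 or more. The largest groups had 8 sites, 1 at Creld2 and Pim3 (chr15:88670354-88701836) and 1 at Retn, Mcemp1 and Trappc5 (chr8:3643929-3675296). Adipor2 had 7 in 35116 bp, Tomm20 7 in 26704 bp, and a stretch between Acsl1 and Cenpu 7 in 31529 bp. Srebf1, which encodes the lipogenic factor SREBP1, had 5 in 18126 bp. Srebf1 and Acsl1 share their groups with other genes, and nearest-gene assignment splits such groups between neighbours.

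Depletion of KDM5A, KDM5B and KDM5C was followed by the most RNA calls among nearest genes at day 2. By limma, 183 of 2380 (7.69%) were higher and 86 (3.61%) lower in shKdm5ABC than in shLuc cells, against 5.66% and 3.34% of all transcripts (9% together). With the replicate number as a block, which the pairing calls for, 410 were higher and 383 lower, against 13.9% and 14.2% of all transcripts. At day 0 there were 23 and 16 (0.606% and 0.901% of all transcripts, 1.51% together), or 161 and 120 with the block (4.38% and 5.05%), and at 4 hours 30 and 13 (0.798% and 0.643%, 1.44% together), or 155 and 101 with the block (4.58% and 5.10%). The day 2 total of 269 was 29 without shKdm5ABC replicate 1, 37 without shLuc replicate 2 and 118 without shLuc replicate 1. At day 0 and 4 hours, leaving out any 1 library of the comparison left 4 to 16 and 2 to 8. The median differences were 0.03, 0.02 and 0.00 at day 0, 4 hours and day 2. Among the 44 tested genes with 5 or more sites, 4 were higher and 3 lower at day 2, or 5 and 13 with the block. None of the 44 was called at day 0 or 4 hours without the block. With it, 7 were higher at day 0 and 2 at 4 hours, and none was lower.

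Angpt2, a vascular growth factor gene with 2 sites, was the highest at day 2, at 3.82 and 2.81 in shLuc and 6.65 and 6.27 in shKdm5ABC (3.14, SE 0.33, limma adjusted p = 0.0014). It was also higher at day 0 (2.04) and 4 hours (3.46). Dpep1, a membrane dipeptidase, was higher by 2.77, Htra3, a secreted protease, by 2.73, Arl4d by 2.37 and Tspan11 by 2.30 at day 2. Among the genes that were lower at day 2 were Tgm2 (-1.67), Wfdc21 (-1.65), Cyrib (-1.20) and Osgin1 (-1.15), and Pim3, with 8 sites, was also lower (-0.97). At day 0 Epas1, a hypoxia factor gene, was higher by 2.06 and Aoc3, an amine oxidase gene, by 1.86, while P2rx3 (-2.39), Irf7 (-2.17) and Paqr3 were lower. The 2 libraries of each group stayed apart for these genes. Tgm2, Wfdc21 and Osgin1 lost their call without shKdm5ABC replicate 1 and without either shLuc library, and Cyrib without shKdm5ABC replicate 1 or shLuc replicate 2. Irf7 lost its call without either shKdm5ABC library or shLuc replicate 2, and Paqr3 and Aoc3 without shLuc replicate 2.

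Of the 21 adipocyte lipid and secreted genes, 1 was called lower under depletion at day 2, the fatty acid elongase gene Elovl3 (-1.57, SE 0.28, limma adjusted p = 0.010), and the median of the 21 was -0.56. With the replicate block 6 were called lower: Elovl3, G0s2 (-2.18), Fabp5 (-1.20), Agpat2 (-1.04), Fabp4 (-0.99) and Fasn (-0.77). By neither fit were Retn (0.00) and Adipoq (0.15, limma adjusted p = 0.94) called. Cebpa differed by -0.72 (limma adjusted p = 0.074) and Pparg by -0.71 (adjusted p = 0.20), and both were called lower with the replicate block (adjusted p of 0.0067 and 0.0079). Klf5 (0.65) and the coactivator gene Ppargc1a (1.40) were higher. Of all 14 adipogenic factors near sites, 2 were higher and 0 lower, or 3 and 3 with the block. At day 0 Cebpa was higher by 1.09 (limma adjusted p = 0.047, or 0.0020 with the replicate block). In the fit without the block, this call was lost without shKdm5ABC replicate 2 and without either shLuc library. Of 5 replication genes nearest to a site, 2 were lower at day 2, Rrm2 (-0.91) and Chaf1a (-0.71). With the replicate block all 5 were called lower, Cdc6 (-0.99, adjusted p = 0.024), Tk1 (-0.83, adjusted p = 0.012) and Pola2 (-0.39, adjusted p = 0.016) in addition. Of 4 mitosis genes 3 were lower, Ttk (-1.10), Nuf2 (-1.09) and Kif23 (-0.76), and with the block Cenpe (-0.90, adjusted p = 0.0052) made it 4. Of 6 G1 and S phase regulators, Ccne1 (-0.87), Tfdp1 (-0.63) and E2f3 (-0.51) were lower and Cdkn1b, an inhibitor of cyclin-dependent kinases, was higher by 0.67. Without the block, the calls of the 8 lower genes (Rrm2, Chaf1a, Ttk, Nuf2, Kif23, Ccne1, Tfdp1 and E2f3) were each lost when any 1 of the 4 day 2 libraries was left out, and that of Cdkn1b in 3 of the 4 cases. Of 19 matrix genes near sites, 4 were higher at day 2 by limma: Adamts5 (1.58), Mmp3 (1.08), Col15a1 (1.03) and Mmp14 (1.01). With the block 5 were higher and 1 lower. No preadipocyte or Wnt gene of the 7 near sites was called without the block, and Fzd1, Fzd2 and Pdgfrb were called higher with it. Of the 6 histone methylation genes, 1 was lower without it, the knocked-down Kdm5b, and 3 with it, Wdr5 and Ezh2 in addition. Over the whole tested lists, 16 of 35 replication and 20 of 32 mitosis genes were lower, or 29 and 31 with the block. The difference between the lists was not tested.

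The H3K4me3 libraries went against their labels and are described before any comparison of them. Over 23 H3K4me3 peaks of genes whose RNA was at least 1 log2 unit higher in shKdm5ABC at all 3 times, H3K4me3 was above the peak's mean in the libraries labelled shKdm5ABC day 0 (1.00 and 1.18), shKdm5ABC day 2 (0.76 and 0.82) and shLuc 4 hours (1.19 and 1.24), and below it in those labelled shKdm5ABC 4 hours (-1.42 and -1.26), shLuc day 0 (-0.96 and -0.56) and shLuc day 2 (-1.01 and -0.99). Over 13 peaks of genes whose RNA rose by at least 3 units at day 2 in both kinds of cell, the libraries labelled shKdm5ABC day 2 (2.12 and 1.41) and shKdm5ABC 4 hours (1.96 and 1.98) were high, and those labelled shLuc day 2 (-0.97 and -1.34), shLuc day 0 (-0.97 and -1.17), shLuc 4 hours (-0.42 and -0.72) and shKdm5ABC day 0 (-0.65 and -0.33) were low. Over 81 peaks of genes whose RNA was at least 2 units higher at 4 hours than at day 0 and day 2 in both, the libraries labelled shKdm5ABC day 0 (0.68 and 0.65), shLuc day 2 (0.31 and 0.32), shKdm5ABC day 2 (0.17 and 0.33) and shLuc 4 hours (0.02 and 0.21) were above the mean, and those labelled shKdm5ABC 4 hours (-0.88 and -0.64) and shLuc day 0 (-0.71 and -0.50) below it. The genes were chosen on RNA after these data were seen. Differences between H3K4me3 groups are therefore given as labelled, and no direction in cells is drawn from them.

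The 448 H3K4me3 peaks that sites overlapped had more tags than the average peak in every library, with medians of 830 to 1140 against 555 to 688 over all 10702. Their medians were 836 and 830 (labelled shLuc day 0), 1039 and 1077 (shLuc 4 hours), 886 and 896 (shLuc day 2), 1140 and 1119 (shKdm5ABC day 0), 915 and 909 (shKdm5ABC 4 hours) and 1133 and 1124 (shKdm5ABC day 2). The 3 pairs labelled shLuc 4 hours, shKdm5ABC day 0 and shKdm5ABC day 2 were the high ones, and within each pair the libraries were close. Tags were not scaled by width, and overlap with a site more than 1000 bp from a start can favour wide peaks. The part of peak width in the higher level of the 448 peaks, and in their calls below, was not tested. As labelled, limma called 219 higher and 1 lower in shKdm5ABC at day 0 (32.7% and 0.196% of all peaks; median 0.39, all peaks 0.29), 33 higher and 156 lower at 4 hours (1.62% and 34.3%; median -0.18, all peaks -0.23) and 151 higher and 4 lower at day 2 (23.8% and 0.243%; median 0.28, all peaks 0.25). The 4 hour count was 189 (35.9% of all). The day 2 count of 155 (24.0% of all) became 289 with the replicate block (53.1% of all peaks), 86 without replicate 1 of either kind and 93 without shKdm5ABC replicate 2, and the day 0 count of 220 (32.9% of all) became 113 without shKdm5ABC replicate 1 and 109 without shLuc replicate 1. Centring on the median left 74 calls at day 0 and 67 at day 2 and moved the 4 hour median to 0.06. In libraries labelled shLuc, limma called 172 higher at 4 hours than at day 0 (27.8% of all peaks) and none lower (0.00934%), with 235 at an unadjusted p under 0.05 and 316 called with the block (59.3% of all). The 172 became 96 without 4 hours replicate 2 and 61 without day 0 replicate 1. At day 2, 27 were higher and 9 lower than at day 0 (1.31% and 0.663%), or 133 in all with the block (15.4% of all) and 9 to 23 with 1 library left out.

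Single peaks showed the conflict between the labels at full size. The H3K4me3 peak at Vdr, which a site 1068 bp from the start overlapped, had 466 and 503 tags in libraries labelled shLuc day 0, 931 and 839 at 4 hours and 2881 and 2351 at day 2, then 2498 and 2077, 549 and 612, and 1397 and 1425 in those labelled shKdm5ABC. The RNA of Vdr, in contrast, was high only at 4 hours in both kinds of cell. The Aoc3 peak had 349 and 408 tags in libraries labelled shLuc 4 hours, 226 to 280 in those labelled shKdm5ABC day 0 and day 2, and 11.96 to 43.97 in the other 6. Aoc3 RNA was higher in shKdm5ABC at all 3 times. The Smim5 peak had 549 and 528 tags in those labelled shKdm5ABC day 2, 121 and 170 in shKdm5ABC 4 hours and 26.1 to 58.9 in the rest (knockdown at day 2 as labelled 4.05, SE 0.25, limma adjusted p = 3.3e-05). The site under it had 112 and 70.1 KDM5C tags, and its KDM5A was 23.4 and 12.5 at day 0, 34.3 and 54.3 at 4 hours and 74.9 and 78.8 at day 2.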

How the data were processed

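Binding of KDM5A (6 libraries) and KDM5C (2 libraries), H3K4me3 (12 libraries), polyA RNA (12 libraries) and 1 Input library were analysed. The sample labelled as Input with virus has no column in the tables and was not analysed here. The submitters' processing notes name the mm9 build and, with no order, the tools STAR, HOMER, Subread, DESeq2 and Bowtie2 (version 0.12.8). The deposited ChIP tables hold 1 row per peak merged over libraries, with a normalised signal, the tags in the peak scaled to 10000000 per library. The deposited RNA table holds log2 normalised tags per kilobase, as its file name says, and its scaling and pseudocount are not given in the sources used here. Whole reads were recovered from every value of the KDM5A and KDM5C tables within 0.1 read, and these recovered counts were used for edgeR and DESeq2 as alternatives to the deposited scaled tags.

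A KDM5C peak was a member where the authors' deposited distance to the nearest start site exceeded 1000 bp in either direction and at least 1 bp overlapped a KDM5A peak. KDM5A, RNA and H3K4me3 were each fitted in limma 3.58.1 (R 4.3.3) with a mean trend over the whole table, on log2(tags + 1) or the deposited log2 values. P values were adjusted by the Benjamini-Hochberg method over all 87525 KDM5A peaks, 13534 transcripts with a log2 value of at least 1 in at least 2 libraries, or 10702 H3K4me3 peaks, and called under 0.05. A fold on the log2(tags + 1) scale understates the change of low peaks. The 6 KDM5A libraries leave 3 residual degrees of freedom and limma took the spread wholly from its trend over all peaks. RNA and H3K4me3 leave 6. On simulated tables with 200 features changed 4-fold at day 2 against day 0, the fit recovered 70% for KDM5A (1 false call), 92.5% for RNA (10 false calls) and 99% for H3K4me3 (9 false calls). The changed features had a mean of at least 20 tags, which 39.2% of sites reach for KDM5A, or for RNA a mean log2 value of at least 3. The simulated ChIP tables had the same dispersion at every peak and no divergent library. Their false calls therefore do not speak for low peaks or for peaks like the 70 set apart. A permutation of 2 against 2 libraries could reach no p under 0.333.

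Genes were taken from the files' RefSeq identifiers: 17249 of 17515 transcripts matched the RefSeq table and 148 more matched through the peak tables. Replicates are labelled as experiments 1 and 2, with nothing on separate cultures, so the spread between these samples may be technical. P values of RNA and H3K4me3 rest in part on each feature's own spread. Those of KDM5A, and their SEs, rest on the trend over all peaks, so the gap between a peak's own replicates does not set them. Deviations of same-numbered libraries from their group means correlated in all 15 RNA pairs (0.381 to 0.657) and all 15 H3K4me3 pairs (0.504 to 0.790), so the number was taken to pair them, and the fit with the replicate block stands beside results it changes. The 3 KDM5A pairs gave 0.047 to 0.333 and were not taken as paired. Members named were those with the most KDM5C tags, the highest ratio to Input or the highest Input, the largest called KDM5A changes, the distances nearest 1000 bp, the most sites per gene and the highest H3K4me3 levels or changes. Genes named were list members by KDM5C tags and the largest called RNA changes, and the other listed genes were named after their values were seen. A gene that this rule would name is not reported here. The members, the lists and the tests were chosen with earlier results of these data known.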

Additional observations from a re-analysis of the deposited data

Results flagged for a closer look

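The H3K4me3 difference between shKdm5ABC and shLuc at the 448 promoter peaks that sites overlapped had a median of -0.176 in the libraries labelled 4 hours, while it was 0.39 at day 0 and 0.28 at day 2. Both replicate pairs went one way at 4 hours (-0.18 and -0.20) and the other way at day 0 (0.43 and 0.36) and at day 2 (0.32 and 0.28). The median of -0.176 was therefore set apart against day 0 and against day 2. The difference between the times was not tested, and these libraries went against their labels over genes chosen on RNA.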

How the results depend on the processing

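Of the recomputed main values and counts, 116 kept their direction and stayed within 1.5 times, 54 fell below that, 19 rose above it and 1 moved. The site count was 1272 with at least 20 KDM5C tags and 1704 with at least 20 mean tags in any overlapping KDM5A peak, not only the matched one. The ratio of KDM5C to Input was 3.32 with 5 tags added. KDM5A calls at 4 hours against day 0 numbered 0 with DESeq2 (197 at an unadjusted p under 0.05), 0 without the trend (253), 0 with only the compared groups (378), 1 with 5 tags added, 59 with at least 10 tags, and 0 to 45 with a library left out. At day 2 against day 0 they numbered 39 without the 70 sites set apart, 5 with DESeq2, 149 with edgeR (132 higher, 17 lower), 109 centred (89 higher, 20 lower), 126 with at least 10 tags, 0 without the trend (538), 121 with only the compared groups and 0 to 84 with a library left out. At day 2 against 4 hours they numbered 3 with DESeq2, 141 with edgeR (104 higher, 37 lower), 218 centred (123 higher, 95 lower), 0 without the trend (498), 98 with only the compared groups and 1 to 143 with a library left out. With the replicate block, which the KDM5A numbers do not call for, these were 126, 252 and 205. RNA calls under depletion were 2, 0 (283 at an unadjusted p under 0.05 in limma) and 5 with only the compared groups at day 0, 4 hours and day 2, and 281, 256 and 793 with the replicate block, 24 at 4 hours without the filter, and 4 to 16, 2 to 8 and 29 to 219 with a library left out. H3K4me3 calls, all by the labels that these libraries went against, were 43, 33, 24, 29 and 11 with sites above 3000 bp only, which leaves 66 peaks. The order is shKdm5ABC against shLuc at day 0, 4 hours and day 2, then shLuc at 4 hours and day 2 against day 0, as labelled. Centred, they were 74 (day 0), 67 (day 2) and 29 (4 hours against day 0). With only the compared groups they were 21 and 12 for the 2 time comparisons. With the replicate block they were 289 (shKdm5ABC against shLuc at day 2, as labelled), and 316 and 133 for the 2 time comparisons. With a library left out they were 109 to 165, 138 to 168, 86 to 107, 61 to 131 and 9 to 23. Of named KDM5A changes, 168 of 264 recomputed values kept their call, 94 lost it, and 2 turned without day 2 replicate 1, at day 2 against 4 hours: 4930455J16Rik (-0.011 to 5.32 with a library left out) and Wbscr17 (-0.211 to 4.81). Of named RNA changes, 1293 of 1566 kept their call, 273 lost it and none turned. The replicate block kept the other main counts within 1.5 times. KDM5C depth, at a median of 6 and 9 reads per site, limits every statement on single sites.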
